A study of Mus musculus with 27 samples.

Results

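Leukemia cells taken from next to bone were compared with the normal progenitors they derive from. The 18 libraries of this comparison, out of 27 in the series, were chosen by their labels alone: 9 of AML cells sorted from crushed metaphysis (endosteal AML) and 9 of sorted granulocyte-macrophage progenitors (GMPs). The AML cells carried MLL-AF9, a fusion oncogene brought into GMPs of mT/mG mice by a retroviral vector that also encodes GFP. They were sorted as DAPI-GFP+mTomato+ cells from the tibias and femurs of fully infiltrated secondary recipients that had not been conditioned. They came from 3 primary leukemias, each passed to 3 libraries and labelled clone 1, clone 3 and clone 19. Donor cells came from BM for clones 1 and 3 and from spleen for clone 19, so the donor organ and the clone cannot be told apart, and a clone here means the leukemia of 1 primary donor, whose clonality was not assessed. The GMPs came from the BM of wild-type mice matched to the recipients for age and sex, and were sorted without separating the regions, in 3 control sets of 3 libraries (A, B and C). The study counts as many control mice as there are GMP libraries and calls the libraries of a leukemia biological replicates. Each GMP label, however, names 3 mice, and the sample titles repeat within sets B and C but not within A. The labels do not say whether the named mice gave the GMPs, so whether a library is a pool or a single mouse is not settled. P-values therefore measure the spread among these libraries, and the 3 libraries of a clone share their primary donor. Leukemic state and bone region go together in this comparison and cannot be told apart.

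GMPs are committed progenitors that give rise to neutrophils and to monocytes. They carry c-Kit and CD34 on the surface and fill their first granules with myeloperoxidase and elastase, and as their progeny mature they switch to secondary granule proteins, integrins and receptors for microbes. MLL-AF9 recruits the elongation machinery to its target genes, above all the Hoxa cluster and Meis1, which keeps cells self-renewing while they take on part of the myeloid program. AML blasts next to bone also meet vessels, osteoblasts and stroma. The study asked whether leukemia cells vary between marrow regions in ways that could trigger the regional remodeling it saw. It compared endosteal with central AML cells and took GMPs as the control population. Only endosteal AML against those GMPs is covered here.

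The smallest CPM step, worth 1 read, gave library sizes between 7.76 and 13.4 M reads for the 9 endosteal AML libraries (median 9.25 M). It gave sizes between 5.60 and 10.7 M for 7 GMP libraries (median 8.63 M) and could not be read in libraries 25 and 26. The deposited table holds 5486 genes, each with an FDR of the authors under 0.05 for a contrast that is not named, so all counts below describe preselected genes. Library 18 of clone 1 stood apart: its root-mean-square log2 distance to libraries 16 and 20 of the same clone was 1.12 to 1.15, against 0.467 between those and 0.321 to 0.524 within clones 3 and 19. GMP pairs lay 0.338 to 1.02 apart, with libraries 25 and 9 farthest from the rest by their median distance. Endosteal AML lay 1.19 to 1.62 from GMPs, and endosteal libraries of different clones lay 0.673 to 1.59 apart, so these 2 ranges overlap. Gm42418, a transcript that overlaps ribosomal RNA sequence, reached 64441 CPM in library 3 of clone 3. It ranged over 1918 to 64441 CPM in endosteal AML (median 6126), against 15888 to 53649 CPM in GMPs (median 31293).

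Of 5024 genes that reached 1 CPM in at least 3 of the 18 libraries, 1504 were called (29.9% of those tested), 908 higher in endosteal AML (18.1%) and 596 lower (11.9%). A call needed an adjusted p under 0.05 (limma, Benjamini-Hochberg) and a change of 1 or more in size on the log2(CPM + 1) scale, which understates the change of low genes. A call among clones needed the same of limma's F-test over the 3 clone means and of the distance from the lowest to the highest of them. All 9 endosteal libraries lay above all 9 GMP libraries for 551 genes (11.0%) and below them for 407 (8.10%). Counts of list members below are to be read beside these shares of all genes tested, which some lists come near. The median log2 fold change of all genes tested was 0.30, which became 0.17 with TMM scaling and 0.12 with quantile normalization. The split moved with it, to 763 higher and 767 lower under TMM and to 706 and 829 under quantile normalization. No gene named by the rule changed its direction under either scaling. Leaving out library 18 gave 1651 calls (1050 higher, 601 lower), leaving out libraries 9, 18 and 25 gave 1616 (983 higher, 633 lower), and comparing the 3 clone means with the 3 control-set means gave 1242 (742 higher, 500 lower). A pseudocount of 3 gave 553 higher and 324 lower, and on recovered reads edgeR gave 1066 lower, voom 1058 and DESeq2 1065. In a bulk sample fewer cells of a type and less RNA per cell cannot be told apart.

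The largest differences of the whole comparison lay in a cluster of stefin A genes on chromosome 16, which encode small intracellular inhibitors of cysteine proteases of the cathepsin family. All 8 cluster genes measured and Slpi, a secreted inhibitor of neutrophil serine proteases, were called higher. The 8 cluster genes had GMP medians under 1 CPM and reached the filter in endosteal AML. A lower call was thus hardly possible for them, and their count is a description. Stfa1 (chr16:36276951-36285373, mm10) had 100.2 to 510.2 CPM in endosteal AML (median 225), against 0.179 to 1.58 CPM in GMPs (median 0.456). Its log2 fold change was 7.33 ± 0.18 (SE, adjusted p = 1.64e-16, limma). Clone 1 had 510.2, 243 and 397 CPM, clone 3 had 366, 206 and 225 CPM and clone 19 had 139, 100.2 and 164 CPM. The values of clone 19 were the lowest, and still far above every GMP library.

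BC100530, a stefin-like gene of the cluster, had a median of 187 CPM in endosteal AML and 0.485 CPM in GMPs and a log2 fold change of 6.91 ± 0.22. BC117090, its neighbour, had a median of 129 CPM in endosteal AML and 0.163 CPM in GMPs and a log2 fold change of 6.80 ± 0.16. In both, every endosteal library lay far above every GMP library. Gm5483, named Cstdc4 in RefSeq, had 6.56 to 118 CPM in endosteal AML (median 53.8), against 0 to 0.466 CPM in GMPs (median 0.117). Its lowest endosteal value was in library 18, at 6.56 CPM, and its log2 fold change of 5.19 became 5.58 without that library. Stfa2 and Stfa2l1 had no read in any of the 9 GMP libraries, which over the 7 libraries of known size allows up to 0.0511 CPM (3 reads, counting error only). Their endosteal means of 5.98 and 5.00 CPM were thus at least 117-fold and at least 97.9-fold higher. Stfa3 had 2.59 to 54.6 CPM in endosteal AML (median 12.4), against 0 to 0.228 CPM in GMPs (median 0), and Csta1 had 3.42 to 42.3 CPM in endosteal AML (median 11.3), against 0 to 0.326 CPM in GMPs (median 0). The median log2 fold change of the 9 genes, Slpi included, was 3.70 as fitted and 6.61 with Stfa2 and Stfa2l1 at their limits, against 0.30 for all genes tested. That median is a description too, since the cluster genes reached the filter in endosteal AML. These genes are near-identical copies, and reads of one may have been counted for another, so their single values are less certain than the rise of the cluster.

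The promoters of 4 of these genes are shown because the cluster rose in all 3 clones, though by different amounts. The list median, Slpi included, was 4.10 in clone 1, 4.95 in clone 3 and 2.37 in clone 19. Of its 9 genes, 6 were called among clones. Of the 8 cluster genes, 6 matched a RefSeq promoter (GRCm38.p6). The longest run of bases that all 6 share in the 150 bases before the start is CACACTCATT, set in capitals, and both strands of all promoters were searched for it. It occurs in 20 of 32851 promoters of that length (0.0609%), which include these 6. Its presence in all 6 follows from how it was chosen, among genes that are near-identical copies. It begins 11 bases before the start in Csta1 and 96 to 103 bases before it in the other matched genes. The match is a description of the sequence and not a binding site. The windows lie at chr16:36276998-36277147 (plus strand) for Stfa1, chr16:36184062-36184211 (plus) for Gm5483, chr16:36408364-36408513 (minus) for Stfa2 and chr16:36455393-36455542 (minus) for Stfa3, each written 5′ to 3′ toward the RefSeq start. RefSeq starts Stfa1 further downstream than the mm10 gene coordinates given above, so its window lies within that gene model.
Stfa1: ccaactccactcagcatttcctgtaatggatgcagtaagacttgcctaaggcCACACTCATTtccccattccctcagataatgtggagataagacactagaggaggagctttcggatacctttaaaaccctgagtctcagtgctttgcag
Gm5483: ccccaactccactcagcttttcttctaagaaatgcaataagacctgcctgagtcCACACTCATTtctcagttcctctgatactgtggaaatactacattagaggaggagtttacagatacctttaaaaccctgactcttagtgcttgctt
Stfa2: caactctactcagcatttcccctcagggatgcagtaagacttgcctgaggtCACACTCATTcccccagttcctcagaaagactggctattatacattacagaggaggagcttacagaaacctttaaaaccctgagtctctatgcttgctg
Stfa3: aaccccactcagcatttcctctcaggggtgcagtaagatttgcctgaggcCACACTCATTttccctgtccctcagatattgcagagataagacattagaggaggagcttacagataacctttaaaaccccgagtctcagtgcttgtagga

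Among the other genes with the largest rises, Igf2bp3, an oncofetal RNA-binding protein known to be high in MLL-rearranged leukemia, had 42.6 to 99.9 CPM in endosteal AML (median 61.8), against 0 to 0.798 CPM in GMPs (median 0.234). Its log2 fold change was 5.78 ± 0.16 and was much alike in the 3 clones (6.04 in clone 1, 5.91 in clone 3 and 5.39 in clone 19), with no call among clones. Hpgd, the enzyme that inactivates prostaglandin E2, had 192, 293 and 127 CPM in clone 1, 152, 163 and 108 CPM in clone 3 and 19.03, 23.4 and 14.8 CPM in clone 19, against 0 to 1.61 CPM (median 0.579) in GMPs. It was higher in every endosteal library than in any GMP library, and its level in clone 19 was below those of clones 1 and 3 (limma F-test among clones, adjusted p = 3.04e-06). Ccdc154, a coiled-coil protein, had 78.3 CPM in endosteal AML and 0.163 CPM in GMPs at the median, a log2 fold change of 5.81 ± 0.18. F7, which encodes coagulation factor VII, had 16.9 to 146 CPM in endosteal AML (median 109.9), against 0.186 to 3.86 CPM in GMPs (median 2.05). Penk, the precursor of enkephalin peptides, had 1.49 to 160.5 CPM in endosteal AML (median 33.5), against 0 to 1.30 CPM in GMPs (median 0.291). In both F7 and Penk the endosteal and GMP values did not overlap, and the Penk value of library 18, 1.49 CPM, was the lowest endosteal one.

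**Figure D1:**
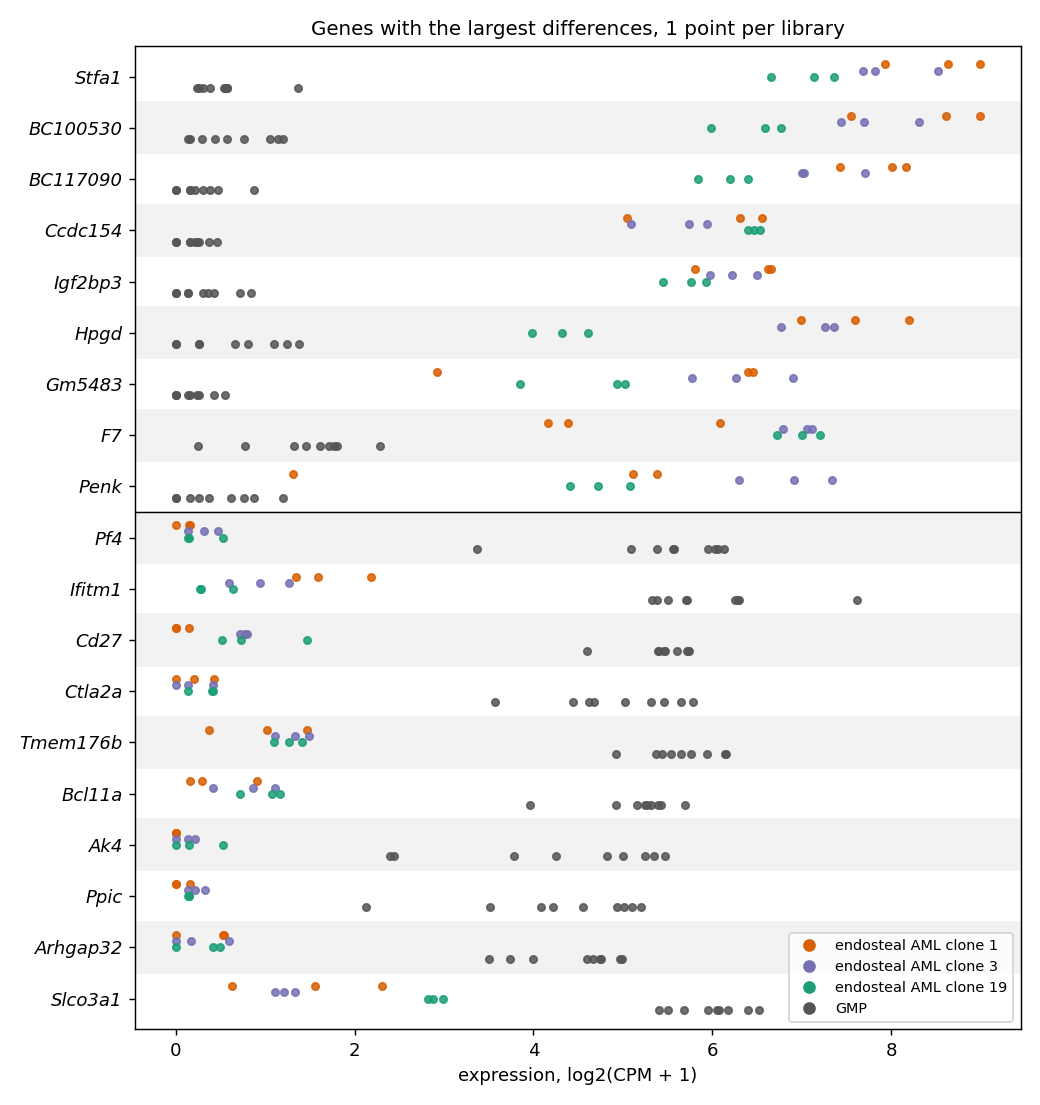
Expression as log2(CPM + 1) of genes with the largest rise (top) and the largest fall (bottom) among those whose groups do not overlap, 1 point per library, with endosteal AML of clones 1, 3 and 19 drawn above GMPs for each gene. The 9 endosteal and the 9 GMP points do not overlap for any gene drawn, which is how they were chosen, and the points of clone 19 lie well below those of clones 1 and 3 in Hpgd.

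Among genes whose groups do not overlap, the 10 with the largest falls had at most 6.92 CPM in any endosteal library, and most were near 0. Pf4, a platelet chemokine that inhibits vessel growth, had 0 to 0.443 CPM in endosteal AML (median 0.110), against 9.32 to 69.3 CPM in GMPs (median 46.6), and fell by 5.23 on the log2 scale (adjusted p = 7.58e-12). Ifitm1, an interferon-induced membrane protein of stem and progenitor cells, had 0.208 to 3.56 CPM in endosteal AML (median 0.917), against 39.1 to 195 CPM in GMPs (median 51.6). Cd27, a TNF receptor family member found on early progenitors, had 0 to 1.76 CPM in endosteal AML (median 0.644), against 23.3 to 52.5 CPM in GMPs (median 43.2). The endosteal values of these 3 stayed below every GMP value. None of the 3 was called among clones, but in Pf4 the endosteal values were too low for a clone distance of 1 on the log2(CPM + 1) scale. Bcl11a, a zinc finger repressor of fetal globin genes, fell by 4.41, with 0.815 CPM in endosteal AML and 37.6 CPM in GMPs at the median. Ctla2a, which like the stefins inhibits cysteine proteases, fell by 4.71, and Tmem176b, a membrane protein, fell by 4.49. Ak4, a mitochondrial adenylate kinase, fell by 4.19, with medians of 0 CPM in endosteal AML and 27.3 CPM in GMPs. The log2 fold changes were -4.17 for Ppic, a cyclophilin, -4.14 for Arhgap32, a GTPase-activating protein, and -4.10 for Slco3a1, an organic anion carrier. Of the 10, Slco3a1 alone was called among clones, and endosteal values this low leave little room for such a call.

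Of 15 genes of the MLL fusion program tested, 12 were called higher and 1, Zfp521, lower, with a median of 2.30. The shares of all genes tested were 18.1% and 11.9%. Of the 15 genes, 10 were called among clones, against 27.6% of all genes tested, and 8 without library 18. The median was 1.51 in clone 1, 2.78 in clone 3 and 2.58 in clone 19. That of clone 1 was 2.07 without library 18 and 3.04 on recovered reads with edgeR. Hoxa9, the homeobox factor most closely tied to MLL leukemia, had 63.7, 30.0 and 81.4 CPM in clone 1, 189.7, 165 and 118 CPM in clone 3 and 150.4, 136 and 107 CPM in clone 19, against 5.96 to 23.95 CPM (median 16.9) in GMPs. Its log2 fold change was 2.70 ± 0.23, and it was not called among clones without library 18. Meis1, its cofactor, had 49.0 to 369 CPM in endosteal AML (median 74.4), against 7.64 to 32.5 CPM in GMPs (median 18.6). The highest value was in library 18, against 100.2 and 66.5 CPM in the other libraries of clone 1. Pbx3, another cofactor, rose by 3.83, and Hoxa10 by 3.27. Eya1, a transcriptional coactivator with phosphatase activity, had log2 fold changes of 3.99 in clone 1, 2.97 in clone 3 and 2.42 in clone 19. In 8 genes of the Hoxa cluster tested, 6 rose, and Hoxa2 and Hoxa4 had log2 fold changes of 0.68 and 0.58 without passing the size threshold.

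Of 8 primary granule genes tested, Mpo, myeloperoxidase, and Ms4a3, a membrane protein of GMPs, fell Lyz2, lysozyme, rose, and 5 were not called. Mpo had 484, 668 and 203 CPM in clone 1, 2191, 2959.8 and 2013 CPM in clone 3 and 2602, 2663 and 3241 CPM in clone 19, against 8832 to 24674 CPM (median 10822) in GMPs. The lowest values were those of clone 1, and every endosteal library lay below every GMP library. Elane, neutrophil elastase, and Prtn3, proteinase 3, had log2 fold changes of -0.55 and -0.61 and were not called. Elane had 149.9, 145 and 113 CPM in clone 1, but 674, 489 and 458 CPM in clone 3, 456, 689 and 632 CPM in clone 19 and 384 to 653 CPM (median 521) in GMPs, so it was under the GMP range in clone 1 alone.

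Of 19 late neutrophil genes tested, 14 rose and none was called lower, with a median of 1.98 (1 was called lower under TMM or quantile scaling). S100a9, a calcium-binding alarmin, had 48.0 to 709 CPM in endosteal AML (median 204), against 1.69 to 38.9 CPM in GMPs (median 12.6). Chil3, a chitinase-like lectin, rose by 4.38, Camp, cathelicidin, by 4.32 and Cd177, a neutrophil surface protein, by 4.09. Csf3r, the receptor for G-CSF, was not called (2.18 CPM in endosteal AML and 2.62 CPM in GMPs at the median). The summed CPM of the 19 genes was 1315 to 4383 in endosteal AML (median 2214) and 622 to 1197 in GMPs.

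Itgam, the CD11b integrin chain that marks these blasts, had 23.6 to 49.3 CPM in endosteal AML (median 28.3), against 2.34 to 8.58 CPM in GMPs (median 4.33). Itgb2, its partner CD18, had 19.4 to 71.6 CPM in endosteal AML (median 44.7), against 1.41 to 12.7 CPM in GMPs (median 3.76). In neither gene did the groups overlap. Of 14 monocyte, macrophage and dendritic cell genes tested, 11 rose, among them Adgre1, the macrophage protein F4/80 (3.15), Lgals3, galectin-3 (2.77), and Gpnmb, a lysosomal glycoprotein of macrophages (2.51), while Apoe, apolipoprotein E, fell by 1.85 (10.4 CPM in endosteal AML and 43.1 CPM in GMPs at the median). Of 14 stem and progenitor regulators tested, 8 fell, among them Tal1, a bHLH factor of blood stem cells (-4.02), Hlf, a stem cell bZIP factor (-2.76), Cd34 (-1.37) and Kit (-1.47). Kit had 3.06 to 10.3 CPM in endosteal AML (median 8.77), against 10.3 to 40.4 CPM in GMPs (median 21.6), and the highest endosteal value just reached the lowest GMP value. Lmo2 and Sox13, which are both transcriptional regulators, rose by 1.31 and 1.31.

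Of 14 myeloid transcription factors tested, 5 rose and 3 fell, against 18.1% and 11.9% of all genes tested. Id2, an inhibitor of bHLH factors, had 30.8 to 67.2 CPM in endosteal AML (median 44.7), against 6.90 to 19.5 CPM in GMPs (median 11.6). Its relative Id1 rose by 1.61 and Id3 fell by 1.27. Ikzf2, Helios, rose by 2.05, and Cebpb, a factor of inflammatory granulopoiesis, by 1.41. Irf5, a factor of macrophage activation, rose by 1.74 but was no longer called when clone 3 was left out or clone means were compared. Irf8, the factor that steers GMPs to monocytes, fell by 1.23, with log2 fold changes of -1.04 in clone 1, -0.39 in clone 3 and -2.26 in clone 19.

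**Figure D2:**
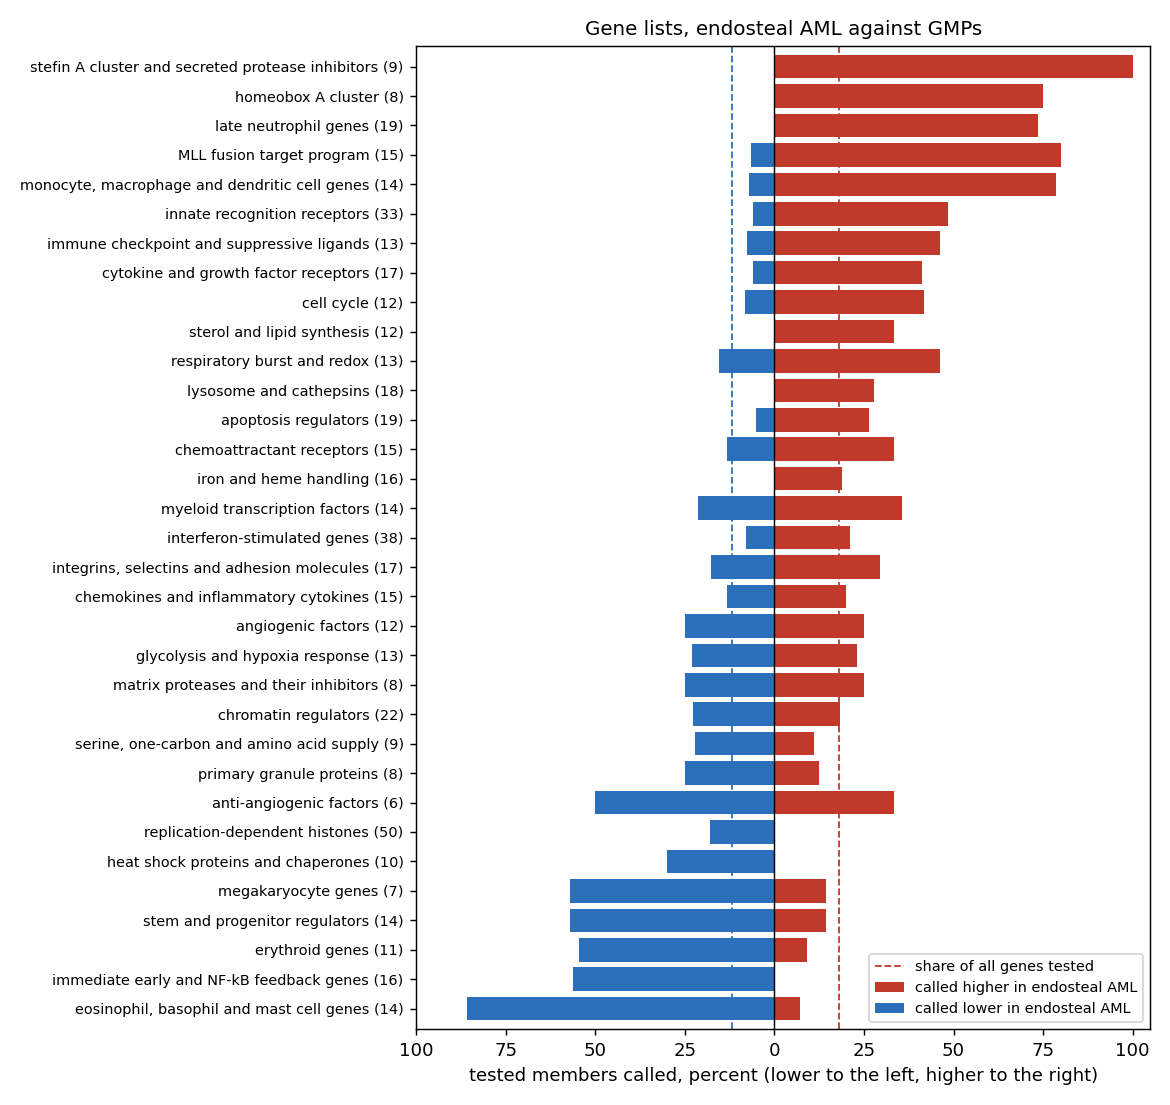
Percent of the tested members of each gene list with 5 or more tested, called higher (red, to the right) and called lower (blue, to the left) in endosteal AML against GMPs, with the number tested in parentheses and dashed lines at the shares of all genes tested, 18.1% and 11.9%. The stefin list has all 9 members to the right, and the eosinophil, basophil and mast cell list has 12 of 14 to the left.

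Of 33 innate receptors tested, 16 were called higher, 2 lower and 15 not called. For 15 of the 33 all 9 endosteal libraries lay above all 9 GMP libraries, against 11.0% of all genes tested. Pira2, an activating paired immunoglobulin-like receptor, had 14.9 to 42.9 CPM in endosteal AML (median 34.1), against 0 to 1.29 CPM in GMPs (median 0.348), and Pirb, its inhibitory counterpart, had 9.85 to 32.2 CPM in endosteal AML (median 14.7), against 0.342 to 1.55 CPM in GMPs (median 0.489). Their log2 fold changes were 4.37 ± 0.17 and 3.45 ± 0.18, though reads may be shared between members of this family. Cd300lf, an inhibitory lipid receptor, rose by 3.14. The C-type lectins of 1 gene cluster rose together, Clec4a2 by 2.85, Clec4b1 by 3.03, Clec4a1 by 2.34 and Clec4a3 by 1.91. Their neighbours in the family Clec4d, Clec4e and Clec4n were not called (-0.64, -0.31 and 0.87).

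Tlr13, a sensor of bacterial ribosomal RNA, had 3.35 to 14.3 CPM in endosteal AML (median 8.18), against 0 to 0.704 CPM in GMPs (median 0.485). Tlr1 and Tlr6, which both pair with Tlr2 to sense lipoproteins, rose by 2.29 and 2.07, while Tlr2 itself had 2.16 to 10.96 CPM in endosteal AML (median 3.73), against 5.14 to 23.8 CPM in GMPs (median 9.13) and a log2 fold change of -0.93, short of the threshold. The adaptor chains that carry Fc and lectin receptor signals rose, Tyrobp by 1.69 (388 CPM in endosteal AML and 103 CPM in GMPs) and Fcer1g by 1.39. Fcgr4, an activating Fc receptor, rose by 2.16. The 2 members that fell were Nlrp3, the inflammasome sensor (-1.51), and Clec5a, a Tyrobp-coupled lectin (-1.27).

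Of 17 cytokine and growth factor receptors tested, 7 rose and 1 fell, with 4 lower calls under TMM or quantile scaling and 3 without library 18. The shares of all genes tested were 18.1% higher and 11.9% lower. Csf2ra, the GM-CSF receptor alpha chain, had 8.87 to 91.1 CPM in endosteal AML (median 68.8), against 5.56 to 14.4 CPM in GMPs (median 10.6). Library 18 of clone 1 alone fell within the GMP range, and libraries 16 and 20 had 62.0 and 41.6 CPM. Il13ra1, a receptor chain for IL-4 and IL-13, had 1.34 to 8.89 CPM in endosteal AML (median 3.35), against 0 to 0.291 CPM in GMPs (median 0). Il10rb, a shared chain of IL-10 family receptors, rose by 1.71, and Il17ra and Il21r by 1.18 and 1.37. Il1r2, a decoy receptor for IL-1, rose by 1.27. The 1 member that fell was Il1rl1, the IL-33 receptor of mast cells and basophils, with 0 to 0.224 CPM in endosteal AML (median 0), against 0.496 to 3.04 CPM in GMPs (median 1.71).

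Chemokine genes showed no common direction. Of 15 chemokines and cytokines tested, 3 rose and 2 fell, shares near the 18.1% and 11.9% of all genes tested. Cxcl2, a chemokine for neutrophils that the study examined, had 2.15 to 32.8 CPM in endosteal AML (median 15.03), against 1.61 to 29.0 CPM in GMPs (median 9.01), a log2 fold change of 0.44 ± 0.48 (adjusted p = 0.396). Its ranges overlapped over most of their width, and the sign turned to -0.25 without control set C and to -0.18 on recovered reads with edgeR. The recovered reads lack libraries 25 and 26, which belong to control set C. Tnf, the other cytokine the study examined, had 4.79 to 10.3 CPM in endosteal AML (median 6.59), against 9.36 to 24.9 CPM in GMPs (median 17.8) and fell by 1.17 (adjusted p = 1.86e-05), with -1.26 in clone 1, -1.36 in clone 3 and -0.91 in clone 19. The study compared Cxcl2 RNA between endosteal and central AML cells, and measured CXCL2 and TNF protein in marrow fluid and serum. Those comparisons and measures differ from the present one. Ccl6, a chemokine of myeloid cells, had 17.6 to 35.7 CPM in endosteal AML (median 21.5), against 5.59 to 11.3 CPM in GMPs (median 7.99) and rose by 1.43, the same way in each clone. Il1rn, the antagonist of the IL-1 receptor, had 6.07, 1.34 and 4.13 CPM in clone 1, 13.1, 12.8 and 13.6 CPM in clone 3 and 27.3, 15.6 and 22.8 CPM in clone 19, against 0.199 to 2.05 CPM (median 0.704) in GMPs. Tnfsf13, which encodes the B cell factor APRIL, had 4.74, 0.224 and 1.38 CPM in clone 1, 19.1, 24.3 and 18.2 CPM in clone 3 and 20.8, 14.7 and 20.6 CPM in clone 19, against 21.04 to 38.6 CPM (median 28.5) in GMPs. Its log2 fold change of -1.52 became -0.52 and lost its call without clone 1.

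Of 15 chemoattractant receptors tested, 5 rose and 2 fell, with 4 of each under TMM or quantile scaling. The shares of all genes tested were 18.1% higher and 11.9% lower. Cxcr4, the receptor for the marrow retention chemokine CXCL12, had 93.5 to 421 CPM in endosteal AML (median 338), against 28.2 to 196 CPM in GMPs (median 115) and rose by 1.67. Ccr1, a receptor for CCL3 and CCL5, had 15.1, 23.7 and 9.87 CPM in clone 1, 9.66, 5.10 and 4.13 CPM in clone 3 and 3.32, 3.53 and 1.95 CPM in clone 19, against 0.101 to 1.86 CPM (median 0.695) in GMPs. Ptafr, the receptor for platelet-activating factor, rose by 2.16, Gpr84, a receptor for medium-chain fatty acids, by 1.64, and C5ar1, the complement C5a receptor, by 1.03. Ptger4, a prostaglandin E2 receptor, had 1.12 to 13.1 CPM in endosteal AML (median 5.37), against 14.7 to 33.8 CPM in GMPs (median 26.1). It fell by 2.01, while Hpgd, which inactivates its ligand, rose in the same libraries. P2ry14, a receptor for UDP-glucose, fell by 1.33, to at most 0.515 CPM in clones 3 and 19, whereas clone 1 had 2.54, 8.05 and 1.95 CPM and GMPs 2.91 to 4.63 CPM (median 3.58).

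Adhesion genes changed in both directions, with 5 of 17 tested higher and 3 lower, against 18.1% and 11.9% of all genes tested. Ncam1, a neural cell adhesion molecule, had 114 to 197 CPM in endosteal AML (median 176), against 15.5 to 31.3 CPM in GMPs (median 23.4), a rise of 2.78 ± 0.14 with no call among clones. Vcam1, a ligand of the integrin VLA-4, had 25.6 to 118 CPM in endosteal AML (median 86.2), against 4.67 to 32.2 CPM in GMPs (median 13.7). Itgb5 and Itgb7, integrin beta chains, rose by 2.28 and 1.47. Itga2b, the integrin chain CD41 of megakaryocytes and early progenitors, had 0.415 to 6.19 CPM in endosteal AML (median 0.909), against 16.7 to 65.3 CPM in GMPs (median 43.5) and fell by 3.99. Alcam, an adhesion molecule of the immunoglobulin family, fell by 2.48, and Cd93, a C-type lectin-like receptor, fell by 1.32. Integrin chains Itga4, Itga5 and Itgb1 had log2 fold changes of 0.07, 0.07 and -0.39.

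Genes with known effects on vessels, secreted factors and receptors, changed in both directions. Among 12 angiogenic genes tested 3 rose and 3 fell, and among 6 anti-angiogenic ones 2 rose and 3 fell. The shares of all genes tested were 18.1% higher and 11.9% lower. With clone means set against control-set means the 3 angiogenic falls became 1, and without library 18 the 2 anti-angiogenic rises became 1. Vegfa, the main vessel growth factor, had 4.96 to 17.8 CPM in endosteal AML (median 9.79), against 8.30 to 30.0 CPM in GMPs (median 13.4), a log2 fold change of -0.65 ± 0.25 (adjusted p = 0.0271) that did not reach the size threshold. Angpt1, a vessel-stabilizing ligand of TIE2, had 20.7, 26.2 and 46.0 CPM in clone 1, 6.96, 6.22 and 2.98 CPM in clone 3 and 1.88, 0.934 and 1.73 CPM in clone 19, against 10.3 to 42.2 CPM (median 31.1) in GMPs. Clone 1 stayed within the GMP range but for library 20, and the fall lay in clones 3 and 19. Egfl7, a secreted vessel protein, had 4.89 to 32.5 CPM in endosteal AML (median 9.49), against 17.3 to 129.5 CPM in GMPs (median 53.3) and fell by 2.22. Grn, progranulin, had 1207, 11563 and 751 CPM in clone 1, 995, 1179 and 1529.9 CPM in clone 3 and 963, 1092 and 963 CPM in clone 19, against 151 to 875 CPM (median 253) in GMPs, and its log2 fold change of 2.18 was 1.78 without library 18. Nrp2 rose by 1.35 and Nrp1 fell by 1.41, both coreceptors for VEGF and semaphorins.

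Serpinf1, the inhibitor of vessel growth PEDF, had log2 fold changes of -2.65 in clone 1, -1.19 in clone 3 and 0.11 in clone 19. Ecm1, a secreted matrix protein, had 1.43 to 9.29 CPM in endosteal AML (median 4.87), against 0.489 to 1.16 CPM in GMPs (median 0.912). Timp3, an inhibitor of metalloproteases that also blocks VEGF signals, had 0 to 0.324 CPM in endosteal AML (median 0), against 0 to 4.27 CPM in GMPs (median 3.10), and Serpine2, an inhibitor of thrombin and urokinase, had 0.408 to 6.93 CPM in endosteal AML (median 2.87), against 41.8 to 98.9 CPM in GMPs (median 54.8). Serpine2 fell by 4.05. Adam8, a metalloprotease of leukocytes, rose by 1.92.

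Of 13 checkpoint and suppressive ligands tested, 6 rose and 1 fell, against 18.1% and 11.9% of all genes tested. Cd24a, a ligand of inhibitory Siglec receptors, had 84.1, 38.8 and 117 CPM in clone 1, 24.5, 19.9 and 15.04 CPM in clone 3 and 7.86, 5.29 and 12.97 CPM in clone 19, against 92.0 to 204 CPM (median 141) in GMPs. Its fall was largest in clone 19 and smallest in clone 1 (-0.94 in clone 1, -2.79 in clone 3 and -3.94 in clone 19, limma F-test adjusted p = 2.16e-05). Vsir, the checkpoint VISTA, had 120.1 to 238 CPM in endosteal AML (median 182), against 41.9 to 117 CPM in GMPs (median 63.2). Nectin2, a ligand of TIGIT, rose by 1.62, Ptges, a prostaglandin E2 synthase, by 1.34, and the adenosine-producing ectoenzymes Entpd1 and Nt5e by 1.12 and 1.01. Cd274, which encodes PD-L1, and Cd47 were not called (-0.51 and 0.24).

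Slc16a3, the lactate exporter MCT4, had 67.5 to 359 CPM in endosteal AML (median 75.4), against 5.72 to 17.5 CPM in GMPs (median 9.58), while Slc16a1, the monocarboxylate carrier MCT1, had 3.22 to 15.2 CPM in endosteal AML (median 5.09), against 22.8 to 36.0 CPM in GMPs (median 28.1). The log2 fold changes were 3.02 ± 0.27 and -1.97 ± 0.21. The highest Slc16a3 value was that of library 18, and the other 8 endosteal libraries lay between 67.5 and 93.3 CPM. Ldhb, the lactate dehydrogenase subunit of oxidative tissue, had 0.373 to 11.5 CPM in endosteal AML (median 2.27), against 13.9 to 24.5 CPM in GMPs (median 19.7), and Aldoc, an aldolase, rose by 2.60. Of 13 genes of glycolysis and hypoxia tested, 3 rose and 3 fell, against 18.1% and 11.9% of all genes tested. The list thus had no single direction (median -0.08).

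Phgdh, the first enzyme of serine synthesis, had 16.9, 19.7 and 20.53 CPM in clone 1, 5.92, 9.79 and 4.38 CPM in clone 3 and 6.53, 6.12 and 4.86 CPM in clone 19, against 102 to 151 CPM (median 137) in GMPs. It fell by 3.71 (SE 0.132, adjusted p = 1.86e-14), while Psat1, the next enzyme of the pathway, had 99.1 CPM in endosteal AML and 101.4 CPM in GMPs at the median and a log2 fold change of 0.11. Of 9 serine and amino acid supply genes tested, Phgdh and Ddit3, the stress factor CHOP, fell and Atf5 rose by 1.52. Clone 1 kept more Phgdh than clones 3 and 19 (limma F-test adjusted p = 4.05e-05), and even its values were far under the lowest GMP value.

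All 12 sterol synthesis and uptake genes tested had positive log2 fold changes with an adjusted p under 0.05 (limma), against 45.3% of all genes tested, and 4 reached the size threshold. Fdps, which makes farnesyl diphosphate, had 82.7 to 263 CPM in endosteal AML (median 102), against 26.8 to 45.0 CPM in GMPs (median 37.0) and rose by 1.68 ± 0.15. Msmo1, a sterol demethylase, had 26.002 to 44.9 CPM in endosteal AML (median 34.8), against 7.74 to 15.5 CPM in GMPs (median 11.8), Sc5d, a sterol desaturase, rose by 1.47, and Fdft1, squalene synthase, by 1.04. Sqle and Cyp51, later enzymes of the pathway, had log2 fold changes of 0.99 and 0.96. The list median was 0.94, against 0.30 for all genes tested, and none of the 12 was called among clones.

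Of 16 iron and heme genes tested, 3 rose, a share near the 18.1% of all genes tested. Hmox1, heme oxygenase, had 4.01 to 14.4 CPM in endosteal AML (median 6.64), against 0.186 to 1.55 CPM in GMPs (median 0.715). Hp, haptoglobin, rose by 1.67, and Cd163, the receptor for haptoglobin-hemoglobin, by 1.37. Tfrc, the transferrin receptor, was not called (-0.39). Of 13 redox genes tested, 6 rose and 2 fell, against 18.1% and 11.9% of all genes tested. Gpx3, a secreted glutathione peroxidase, had 21.4 to 166 CPM in endosteal AML (median 45.8), against 3.53 to 11.02 CPM in GMPs (median 5.45), and Cyba, a subunit of the phagocyte NADPH oxidase, had 160.0 to 396 CPM in endosteal AML (median 329), against 74.1 to 102 CPM in GMPs (median 86.0). Cybb, the oxidase's catalytic subunit, had 264, 395 and 114 CPM in clone 1 and 198, 172 and 162 CPM in clone 3, but 31.3, 33.8 and 30.4 CPM in clone 19, against 49.6 to 84.3 CPM (median 54.7) in GMPs. Nfe2l2, the antioxidant regulator NRF2, fell by 1.18, and Gclm, a subunit of glutathione synthesis under its control, fell by 1.09, whereas Srxn1, another NRF2 target, rose by 1.78. Of 18 lysosomal genes tested, 5 rose and none fell, against the same shares of all genes tested. Among the 5 were Ctsa, cathepsin A (1.72), and Neu1, a sialidase (1.44).

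**Figure D3:**
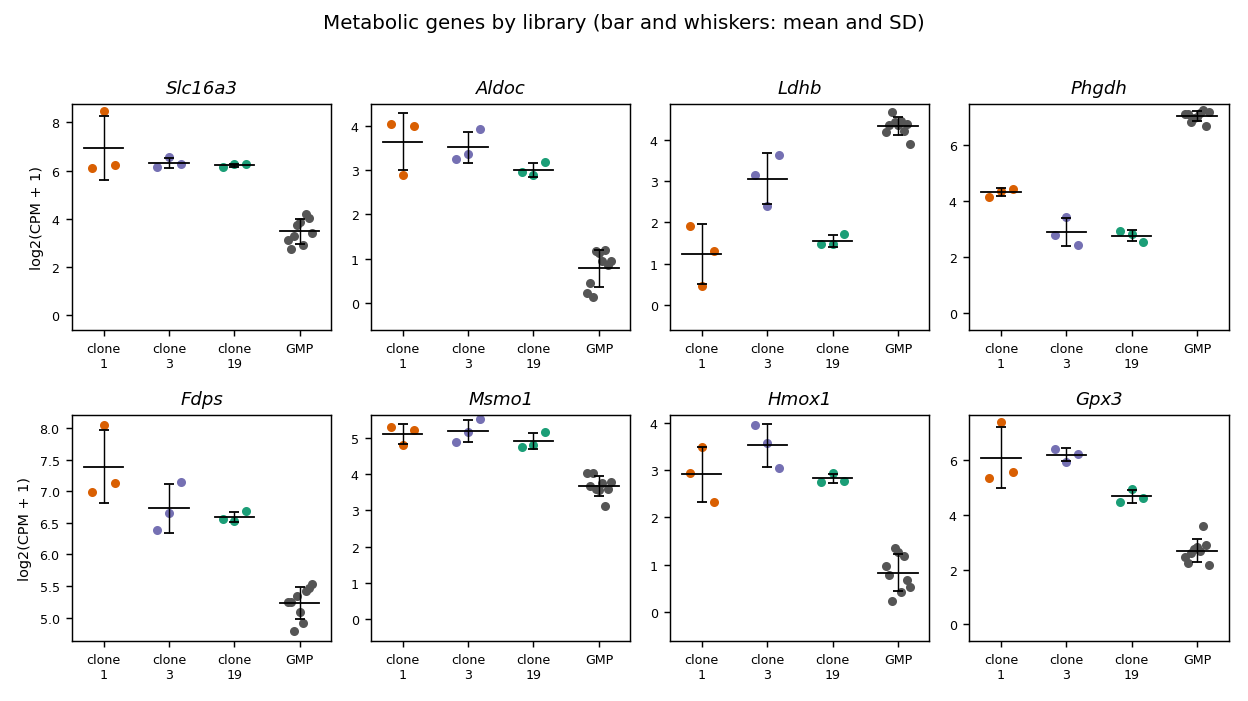
Expression as log2(CPM + 1) of 8 metabolic genes in the 3 endosteal AML clones (3 libraries each) and GMPs (9 libraries), 1 point per library, with a bar and whiskers for mean and SD. Ldhb and Phgdh lie below the GMP points in every endosteal library, and in the other 6 genes every endosteal point lies above them.

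Among 12 cell cycle genes tested, 5 rose and 1 fell, against 18.1% and 11.9% of all genes tested. Ccnd2, cyclin D2, had 34.6, 480.5 and 74.4 CPM in clone 1, 17.1, 12.8 and 7.36 CPM in clone 3 and 6.53, 3.01 and 3.03 CPM in clone 19, against 347 to 809.9 CPM (median 513) in GMPs. Library 18 alone lay within the GMP range, and the fall of 4.75 became 5.11 without it. Ccnd1, cyclin D1, had log2 fold changes of 1.84 in clone 1, 0.51 in clone 3 and -2.36 in clone 19, which averaged to about 0. Of 5 inhibitors of cyclin-dependent kinases tested, 4 rose and Cdkn1a, p21, was not called (-0.30). Cdkn2c, p18, had 11.7 to 28.8 CPM in endosteal AML (median 20.2), against 3.42 to 8.48 CPM in GMPs (median 4.22), Cdkn2d, p19, rose by 1.47, and Cdkn1c, p57, by 1.82. Cdkn2a, which encodes p16 and p19ARF, had 12.5, 1.79 and 12.6 CPM in clone 1, 45.7, 44.5 and 29.6 CPM in clone 3 and 1.77, 0.934 and 1.51 CPM in clone 19, against 0 to 0.979 CPM (median 0.093) in GMPs.

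Of 19 apoptosis regulators tested, 5 rose and 1 fell, against 18.1% and 11.9% of all genes tested. The antiapoptotic Bcl2a1a, Bcl2a1b and Bcl2a1d, near-identical copies whose reads may be shared, rose by 1.93, 1.47 and 1.61, less in clone 1 (0.74 for Bcl2a1a). Bmf, a proapoptotic BH3-only protein, had 0.918 to 4.46 CPM in endosteal AML (median 3.46), against 0 to 0.715 CPM in GMPs (median 0.093), Fas, a death receptor, rose by 1.17, and Casp4, an inflammatory caspase, fell by 1.14. Mcl1 and Bcl2 were not called (-0.77 and -0.34). Of 22 chromatin regulators tested, 4 rose, a share near the 18.1% of all genes tested, and 5 fell, against 11.9%. Tet1, a 5-methylcytosine dioxygenase, had 0 to 1.66 CPM in endosteal AML (median 0.648), against 4.38 to 9.01 CPM in GMPs (median 6.85), and Kdm5b, a histone demethylase, fell by 1.57. Chd3, a nucleosome remodeler, had 21.4, 94.2 and 20.3 CPM in clone 1, 5.41, 5.50 and 2.89 CPM in clone 3 and 9.52, 8.30 and 5.29 CPM in clone 19, against 16.9 to 57.1 CPM (median 39.1) in GMPs. Chd7, another remodeler of the family, rose by 1.56.

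Of 16 immediate early and NF-kB feedback genes tested, 9 fell (7 with clone means against control-set means), 7 were not called and none rose, with a median of -1.23. Atf3, a stress-induced repressor, had 2.31 to 21.9 CPM in endosteal AML (median 8.11), against 31.1 to 85.7 CPM in GMPs (median 44.2). Klf6, a zinc finger factor, fell by 1.903, and the NF-kB inhibitors Tnfaip3, Nfkbia and Nfkbiz had log2 fold changes of -1.89, -1.71 and -1.68. Fos and Egr1, the most rapidly induced, were not called (-0.72 and -0.26). The summed CPM of the 16 genes was 1022 to 5241 in endosteal AML (median 3090) and 4206 to 7758 in GMPs, with libraries 16 and 18 of clone 1 and 10 of clone 19 highest among the leukemic ones. The part of cell handling in this fall was not tested. Of 10 heat shock genes tested, Dnajb4, Hspa1a and Hspb1 were called lower, against 11.9% of all genes tested. Hspa1a, though, had 13.1, 3.65 and 17.3 CPM in clone 1 and 48.2, 74.6 and 159.7 CPM in clone 19, against 12.3 to 209 CPM (median 89.1) in GMPs. Hspb1 lost its call without GMP library 23 or 24.

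Of 50 replication-dependent histone genes tested, 9 fell, all of them H2A genes, and none rose, against 11.9% and 18.1% of all genes tested. Hist3h2a had 101.4 to 445 CPM in endosteal AML (median 214), against 399 to 1283 CPM in GMPs (median 764), and Hist1h2af and Hist1h2ad had log2 fold changes of -1.66 and -1.59. The median of the 50 was -0.28. Most histone mRNAs lack a poly(A) tail, on which the kit primes, and near-identical copies may share reads. Of the 50 genes 27 were called among clones, against 27.6% of all genes tested, and 2 without library 18, when 1049 of all genes were called.

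Interferon-stimulated genes differed by clone. Of 38 tested, 8 were called higher (5 under quantile normalization or with clone means against control-set means) and 3 lower against GMPs, and 29 were called among clones. The shares of all genes tested were 18.1% higher, 11.9% lower and 27.6% among clones. The median log2 fold change was 0.05 in clone 1, 1.18 in clone 3 and 0.17 in clone 19, each against the same 9 GMP libraries. Irf7, a factor of the interferon loop, had 9.93, 2.31 and 11.5 CPM in clone 1, 14.04, 20.8 and 73.7 CPM in clone 3 and 9.85, 9.54 and 9.73 CPM in clone 19, against 0.466 to 4.24 CPM (median 2.10) in GMPs. Ifi27l2a, an interferon-induced mitochondrial protein, had 9.38, 3.43 and 10.8 CPM in clone 1, 37.4, 29.3 and 73.2 CPM in clone 3 and 9.96, 8.71 and 19.9 CPM in clone 19, against 0.839 to 2.92 CPM (median 1.65) in GMPs. Library 5 of clone 3 was the highest in both genes and in the sum of the list, at 2213 CPM against 720 to 1386 CPM in the other endosteal libraries. Without it, 20 of the 38 genes were called among clones, the clone 3 median was 0.95, and Irf7 was no longer called among clones. Against this background Ifitm1, Ifi203 and Lgals3bp fell, Ifitm1 in all 3 clones.

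**Figure D4:**
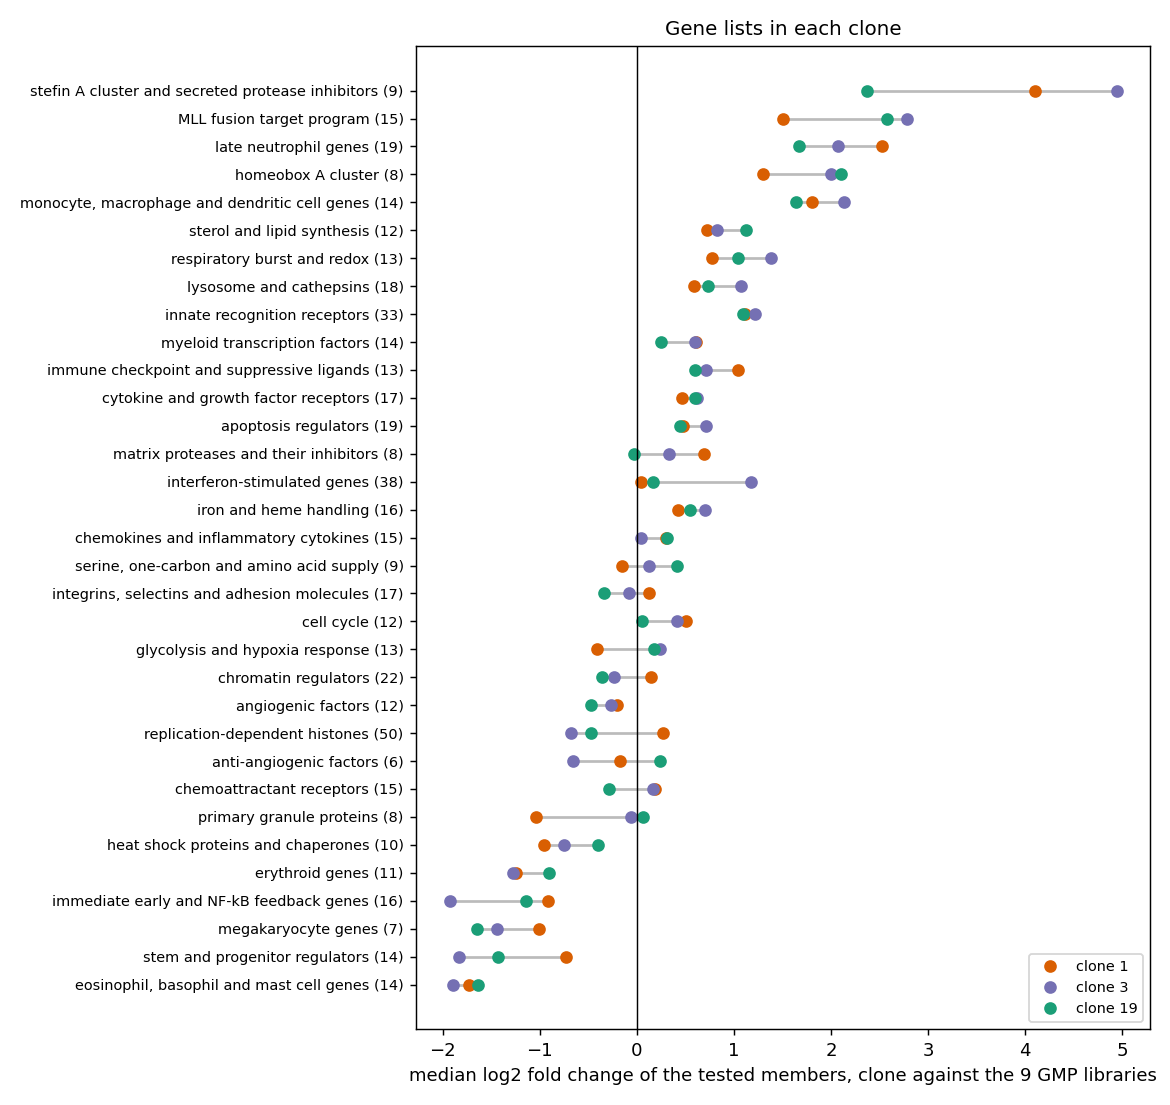
Median log2 fold change of the tested members of each gene list in clone 1, clone 3 and clone 19 against the same 9 GMP libraries, with a grey line over the range of the clones and the number tested in parentheses. The stefin list has the highest median in clones 1 and 3 and the second highest, after the MLL list, in clone 19, and the interferon list sets clone 3 (1.18) apart from clones 1 and 19.

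Genes of other marrow lineages were mostly lower in endosteal AML. Of 14 eosinophil, basophil and mast cell genes tested, 12 fell and Alox5, a leukotriene enzyme, rose. Prg2, the eosinophil major basic protein, had 77.3, 48.3 and 96.0 CPM in clone 1, 35.2, 24.9 and 21.3 CPM in clone 3 and 6.31, 2.08 and 7.78 CPM in clone 19, against 84.2 to 462 CPM (median 241) in GMPs. Prss34, a basophil protease, had 0 to 4.41 CPM in endosteal AML (median 0.331), against 11.7 to 38.8 CPM in GMPs (median 25.4), and Epx, eosinophil peroxidase, fell by 2.82. Of 11 erythroid genes tested, 6 fell, among them Aqp1 (-3.48), a water channel, Tfr2 (-2.59), a transferrin receptor, and Car2 (-2.54), carbonic anhydrase 2, and Rhd, a blood group antigen, rose by 1.27. Of 7 megakaryocyte genes tested, 4 fell, among them F2r, a thrombin receptor (-2.05), and Gp5, a platelet glycoprotein (-1.63). Gp1bb, another platelet glycoprotein, rose and had 9.49, 112 and 8.03 CPM in clone 1, 11.6, 8.56 and 6.78 CPM in clone 3 and 3.76, 3.53 and 5.84 CPM in clone 19, against 0.093 to 3.28 CPM (median 1.74) in GMPs, with a log2 fold change of 2.02, or 1.62 without library 18. The summed CPM of the 14 eosinophil, basophil and mast cell genes was 96.5 to 281 in endosteal AML (median 244) and 325 to 906 in GMPs (median 586). That of the 7 megakaryocyte genes was 33.9 to 167 in endosteal AML (median 56.1), with libraries 16 and 18 of clone 1 highest, and 82.3 to 145 in GMPs (median 126). That of the 11 erythroid genes was 11.6 to 20.3 in endosteal AML (median 16.9) and 24.4 to 68.6 in GMPs (median 49.5), and the part of such cells in the falls of other genes was not tested.

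Markers of cells outside the myeloid gates were summed by list. B cell markers (0 of 5 called) summed to 12.9 to 24.9 CPM in endosteal AML and 13.7 to 19.1 CPM in GMPs. Osteoblast and bone matrix markers (0 of 4 called) summed to 0.644 to 2.32 CPM in endosteal AML and 0.818 to 10.03 CPM in GMPs, so bone matrix genes were at or near 0 in endosteal AML too. Osteoclast markers (1 of 4, Acp5, higher) summed to 27.1 to 60.9 CPM in endosteal AML and 19.2 to 28.1 CPM in GMPs. Endothelial markers (0 higher, 2 of 6 lower) summed to 0.803 to 4.05 CPM in endosteal AML and 19.8 to 73.6 CPM in GMPs. Most of the GMP sum was Eng, with medians of 1.32 CPM in endosteal AML and 19.8 CPM in GMPs. Emcn and Tek were at 0 in 9 of 9 endosteal libraries, which allows up to 0.0338 CPM over the 9. Stab2 went the other way without a call, with up to 3.735 CPM in endosteal AML and up to 0.117 CPM in GMPs. T and NK cell markers summed to 9.51 to 44.5 CPM in endosteal AML and 157 to 299 CPM in GMPs, nearly all of it Nkg7, a granule protein (10.2 CPM in endosteal AML and 192 CPM in GMPs), while Bcl11b, a T cell factor, rose by 2.31. Of 3 stromal markers 2 rose: Cxcl12, the niche chemokine, had 0.331, 0 and 0.115 CPM in clone 1, 7.99, 7.03 and 4.22 CPM in clone 3 and 8.30, 7.05 and 7.13 CPM in clone 19, against 0 to 0.357 CPM (median 0) in GMPs, and Acta2, smooth muscle actin, rose by 1.17. The AML cells were sorted on GFP and mTomato, and the source of the Cxcl12 reads was not tested.

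The 3 clones shared the direction of the largest changes but not the size of many others. Against the same 9 GMP libraries, 1465 genes were called in clone 1 (29.2%), 1856 in clone 3 (36.9%) and 2055 in clone 19 (40.9%). Among the clones 1388 genes were called (27.6%), a count that was 1049 without library 18 and 1741 without library 20 of clone 1. Of the genes called higher against GMPs 39.4% were also called among clones, of those called lower 29.0%, and of those not called 24.3%.

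Some genes were high in certain clones and near the GMP level or under it in others. They are the genes with the largest clone differences by the rule for named genes, so their size is a description. Tcf24, a bHLH factor, had 5.63, 0.298 and 1.15 CPM in clone 1, 198, 203 and 156 CPM in clone 3 and 108, 100.4 and 111 CPM in clone 19, against 0 to 0.570 CPM (median 0.116) in GMPs. Mgl2, a macrophage galactose-type lectin, had 13.5, 0.746 and 4.36 CPM in clone 1, 109, 166 and 139 CPM in clone 3 and 247, 236 and 263 CPM in clone 19, against 11.5 to 24.6 CPM (median 14.4) in GMPs. Clone 1 was thus far under clones 3 and 19 in both genes, and in Mgl2 at or under the lowest GMP values but for library 16. Tmem215, a membrane protein, had log2 fold changes of -2.49 in clone 1, 2.11 in clone 3 and 3.32 in clone 19, so it went down in clone 1 and up in the other clones.

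Clone 19 stood alone in other genes. Skida1, a protein with a SKI/DACH domain, had 35.2, 35.6 and 32.0 CPM in clone 19 but 0 to 0.229 CPM in the other 6 endosteal libraries and 0 to 0.116 CPM (median 0) in GMPs. Mtus2, a microtubule-associated protein, had log2 fold changes of -1.40 in clone 1, -1.12 in clone 3 and 3.96 in clone 19. Ly6k, a GPI-anchored protein of the Ly6 family, had 0.775, 0.519 and 2.59 CPM in clone 19, against 130.4, 27.1 and 102 CPM in clone 1, 44.6, 52.9 and 73.5 CPM in clone 3 and 0.326 to 2.85 CPM (median 1.74) in GMPs. Ms4a3 had 0.443, 0.208 and 3.24 CPM in clone 19, against 26.1, 121 and 48.8 CPM in clone 1, 60.8, 66.3 and 36.5 CPM in clone 3 and 90.7 to 225 CPM (median 158) in GMPs. Ly6k in clone 19 was thus at the GMP level and Ms4a3 far under it, and the spleen origin of clone 19 cannot be told apart from the clone. Clone 3 was highest in Cdkn2a and in Lpl, lipoprotein lipase, which had 134, 158 and 176 CPM in clone 3, against 58.7, 7.68 and 42.9 CPM in clone 1, 5.42, 3.42 and 8.97 CPM in clone 19 and 1.99 to 8.48 CPM (median 6.11) in GMPs. Col19a1, a collagen chain, was lowest in clone 3 (1.55, 2.14 and 1.32 CPM) and had 28.0, 93.6 and 23.3 CPM in clone 1, 6.53, 8.20 and 3.57 CPM in clone 19 and 0 to 1.49 CPM (median 0.101) in GMPs.

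Library 18 carried much of the spread of clone 1. It was the highest endosteal library in Grn, Gp1bb, Ccnd2, Meis1, Chd3, Slc16a3 and Col19a1 and the lowest in Csf2ra, Hoxa9, Penk, Gm5483 and Mgl2. Of the 125 named genes 57 were called among clones, and 38 of them were called in every setting that kept the 3 clones and tested the gene (at most 34), Tcf24, Mgl2, Ccnd2, Cdkn2a, Hpgd and Mpo among them. Adgre1, Ecm1, Hoxa9 and Ikzf2 were not called among clones without library 18. Against GMPs, leaving out any 1 of the 18 libraries moved no named gene by more than 0.44 on the log2 scale.

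**Figure D5:**
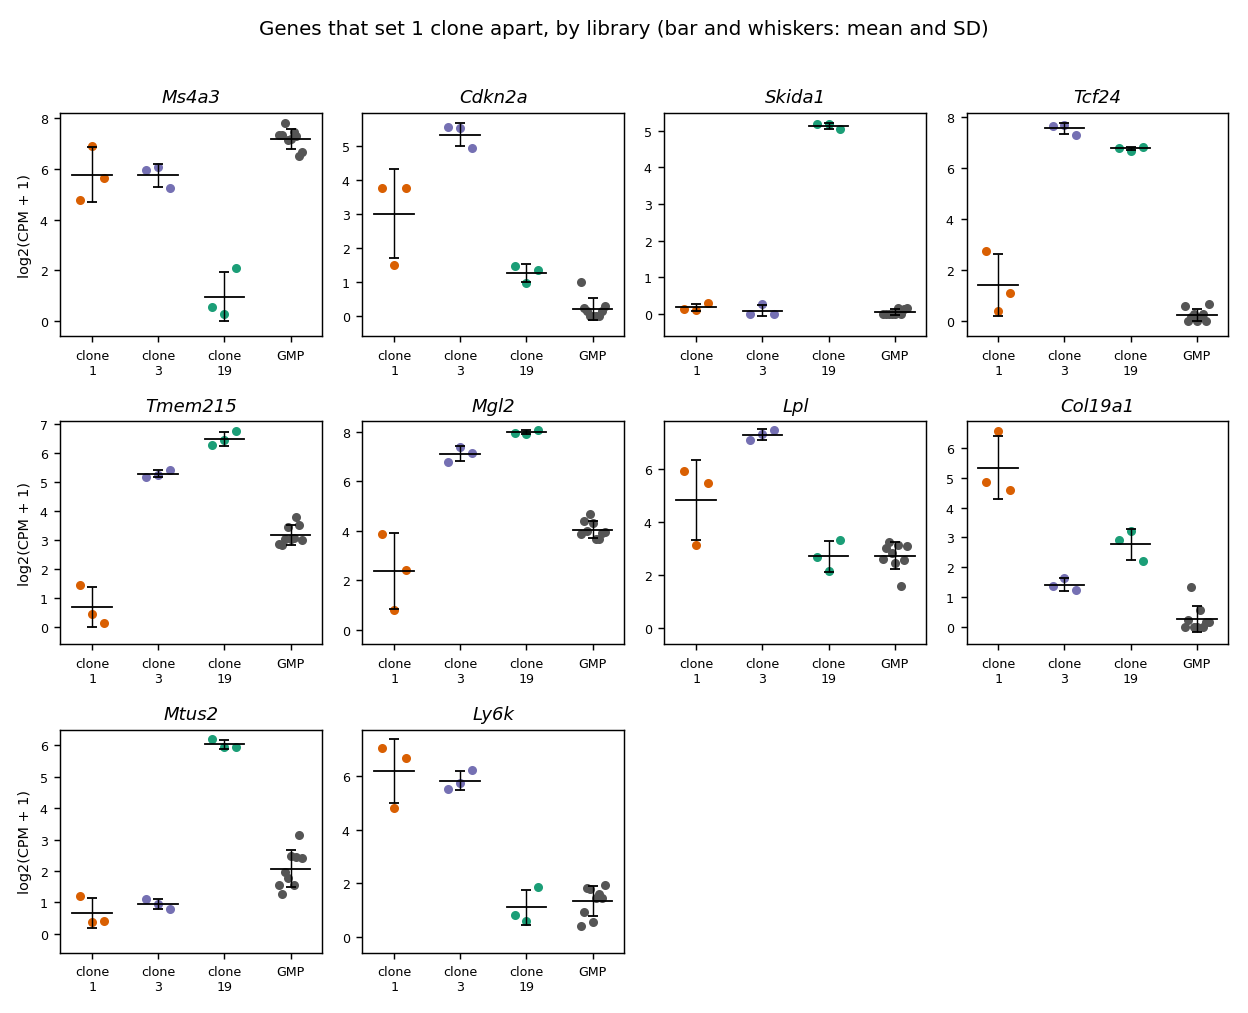
Expression as log2(CPM + 1) of genes with a large difference of 1 clone from the other clones, in clones 1, 3 and 19 (3 libraries each) and GMPs (9 libraries), 1 point per library, with a bar and whiskers for mean and SD. Among the clones, Skida1 and Mtus2 are high in clone 19 alone, Ly6k and Ms4a3 low in clone 19 alone, and Tcf24, Mgl2 and Tmem215 low in clone 1 alone.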

How the data were processed

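RNA of 27 samples was made into 3′ libraries (QuantSeq), so that a gene's reads come from its 3′ end. The authors trimmed reads with cutadapt 1.9, aligned them with HISAT2 to mm10, counted them per gene with featureCounts and fitted voom and limma; other versions are not given in the sources used here. The deposited table holds CPM (read counts scaled to the library total) as the authors computed and rounded them to 3 decimals, for 5486 genes. It also holds the authors' mean log2 level, log2 fold change and FDR, which were not used except to find that every deposited FDR is under 0.05. Column names give a group and not a sample, so libraries are called by their column number.

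The 9 central AML columns were left out. Genes with at least 1 CPM in 3 of 18 libraries were fitted on log2(CPM + 1) with limma 3.58.1 (R 4.3.3), with a trend, the 4 group means and Benjamini-Hochberg adjustment over all genes tested. The contrast was the mean of the 3 clone means minus the GMP mean, ± is the SE of that fit, and tests were two-sided. The CPM step of 1 read was clear in 16 of 18 libraries. There, 100% of the low values checked came out whole within 0.1, and higher values were rounded to whole reads without this check. The same 100% was reached in libraries 25 and 26, where the step was not clear. On the reads of the 16 libraries, edgeR 4.0.16, voom and DESeq2 1.42.0 were run as alternatives. Other alternatives were scaling, pseudocount, filter and leaving out libraries, clones or control sets. Limits for genes at 0 cover counting error only.

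Members and gene lists were chosen with earlier results of these data known. The genes named by rule were the 10 largest rises and 10 largest falls with groups that do not overlap, the 3 largest called members of each list, Cxcl2, Tnf, Vegfa, Meis1, Hoxa9, Mpo, Cd34, Kit and Itgam, and the 4 genes furthest from the other clones for each clone. Some genes that the rule names are not reported here, and other genes were named after their values were seen. Of the deposited symbols 9 had turned to dates and were left as they are, and 5350 symbols matched GENCODE M21 once. Tables and figures were made with Python 3.11.15, pandas 2.3.3 and matplotlib 3.10.9.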

Additional observations from a re-analysis of the deposited data

Results flagged for a closer look

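Among the 9 GMP libraries, 12 of the 125 named genes had 1 library set apart from the others by the test of Dixon, which flags about 1 in 20 such groups by chance, and 7 of the 12 were in library 9. Library 9 was low in Pf4 (9.32 CPM), Cd27 (23.3 CPM), Bcl11a (14.6 CPM), Angpt1 (10.3 CPM) and Klf6 (435 CPM) and high in Stfa1 (1.58 CPM) and Col19a1 (1.49 CPM). Library 25 was high in Ifitm1 (195 CPM) and low in Neu1 (12.1 CPM) and Lpl (1.99 CPM), library 22 was high in Il13ra1 (0.291 CPM) and library 7 in Cdkn2a (0.979 CPM). In Stfa1, Pf4, Ifitm1, Cd27 and Bcl11a the library apart still lay on the same side of all 9 endosteal libraries as the other GMPs.

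The clones differed from one another by limma's F-test, with at least 3 between the lowest and the highest log2 fold change against the same GMPs, in 15 named genes. The distance was 6.13 for Tcf24, 5.81 for Tmem215, 5.60 for Mgl2, 5.36 for Mtus2, 5.09 for Ly6k, 5.05 for Skida1 and 4.81 for Ms4a3. It was 4.57 for Lpl, 4.46 for Ccnd2, 4.08 for Cdkn2a, 3.94 for Col19a1, 3.63 for Prg2, 3.61 for Angpt1, 3.29 for Hpgd and 3.06 for Tnfsf13. Those of the 15 that the rule chose for their clone difference are a description.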

How the results depend on the processing

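Of 253 counts of calls recomputed over 39 settings, 244 stayed within 1.5 times the main count. With a pseudocount of 3, 877 genes were called (553 higher, 324 lower), and 888 in clone 1, 1142 in clone 3 and 1258 in clone 19. On recovered reads, edgeR called 2189 genes (1123 higher, 1066 lower), voom 2216 (1158 higher, 1058 lower) and DESeq2 2185 (1120 higher, 1065 lower). Without 1 library, the calls ranged over 1470 to 1651, the rises 864 to 1050, the falls 567 to 628, clone 1 1447 to 1538, clone 3 1698 to 1908, clone 19 1863 to 2136 and the calls among clones 1049 to 1741. The settings chosen after seeing the data, without libraries 3 and 18 (1671 calls), without 9, 18 and 25 (1616) and without 18, 25 and 26 (1533), stayed within 1.5 times. Of 4862 gene values 6 changed sign and 34 lost a call. Cxcl2 went to -0.25 without control set C, -0.18 with edgeR, -0.14 with voom and -0.20 with DESeq2. The settings on recovered reads lack libraries 25 and 26 of control set C. Without clone 19, Tmem215 went to -0.19 and Mtus2 to -1.26. Hspb1 lost its call in 7 settings, and Hspa1a, Mgl2 and Serpinf1 in 3 each. Of the list medians, that of chemoattractant receptors (-0.47) became 0.38 with no filter and 0.0043 without clone 3. That of chemokines and cytokines (0.37) became -0.0298 without control set C, -0.097 with edgeR, -0.11 with voom and -0.0882 with DESeq2. The cause was not tested, beyond fewer libraries or other genes entering. No paired analysis was possible because endosteal AML and GMP columns share no replicate numbers. Depth limits the lowest genes: 3 reads over the 7 sized GMP libraries are 0.0511 CPM.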

Other observations

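Flt3l, the FLT3 ligand, and Rpl13a, a ribosomal protein, overlap in the genome. The Flt3l value was 96.8% to 98.9% of the Rpl13a value in the endosteal libraries and 96.2% to 98.0% in the GMP libraries, so its level cannot be told apart from that of Rpl13a in this table.

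Genes of T and NK cells and of endothelium with no read in any endosteal library were low in GMPs too. Gzmb, granzyme B, was at least 28.8-fold lower, Tek, the TIE2 receptor, at least 24.6-fold lower and Emcn, endomucin, at least 23.4-fold lower, each against the limit of 3 reads over the 9 endosteal libraries. With such genes at their limits, the endothelial list median of -0.82 became -2.69 and the T and NK list median of -0.84 became -3.89.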
